A study of Arabidopsis thaliana with 18 samples.

Results

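Strong binding sites of FLC outside genes with a known role in flowering are described here at 4 chosen loci of *Arabidopsis thaliana*, which carry 8 genes. *DRB5*, *AT5G41071* and *GDPD2* lie side by side on chromosome 5, *AT2G20440* and *AT2G20450* on chromosome 2, *RLP33* and *AT3G05670* on chromosome 3, and *AT1G20380* on chromosome 1. A peak was counted as a member when the authors had assigned at least 1 of these 8 genes to it. This gave 14 of the 1503 peaks in 4 lists, with 4 of 315 peaks for FLC in WT, 4 of 419 for FLC in *svp-41*, 4 of 523 for SVP:GFP in WT and 2 of 246 for SVP:GFP in *flc-3*. The loci were chosen from the peak values themselves. The first 3 loci held the 3 strongest peaks of FLC in WT, and *AT1G20380* held the third strongest peak of FLC in *svp-41*. Their high ranks in those lists therefore describe the choice and test nothing. The same holds for the direction and size of the differences in FLC rank and fold-enrichment between genotypes. No gene product in the annotation of the 8 genes is described as a regulator of flowering.

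The study mapped binding of the MADS-domain proteins FLC and SVP by ChIP-seq in 18 samples, 3 in each of 6 groups. All samples were 2-week-old seedlings labelled as Columbia-0 with an active *FRI* allele, although the name of the *35S:GFP* line itself does not list *FRI*. FLC was precipitated with an antiserum from plants with functional *SVP* and *FLC* (FLC in WT) and from plants without SVP (FLC in *svp-41*). Plants lacking both proteins, *svp-41 flc-3*, served as the negative control of both FLC lists. SVP:GFP, a fusion under the *SVP* promoter in the *svp-41* background, was precipitated with an antibody against GFP from plants with functional *FLC* (SVP:GFP in WT) and from *flc-3* plants (SVP:GFP in *flc-3*), and *35S:GFP* plants served as the negative control of both SVP:GFP lists. The day length is long days in the sample labels and short days in the methods of the paper. Each list gives peaks that were reproducible between samples of its group, with 1 value for a peak, so no SD can be given, no test between genotypes was made and the depth of the samples is unknown. Which sample or combination of samples gave the fold-enrichment and −log10(P) of a peak is not given in the sources used here.

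FLC and SVP are transcription factors that repress flowering, FLC until the plant has passed a winter and SVP in response to temperature and other signals. Both are MADS-domain proteins, which bind DNA as dimers at the CArG-box, a run of A and T bases between CC and GG, and both occur in shared complexes as well as apart. The genes at the 4 loci serve other purposes. DRB proteins bind double-stranded RNA and the family includes HYL1, which acts in the processing of miRNAs. GDPD enzymes cleave glycerophosphodiesters, RLP33 is a receptor-like protein, L14 belongs to the large ribosomal subunit, Rab-GAPs switch off small GTPases of membrane traffic, RING and U-box domains are typical of ubiquitin ligases, and prolyl oligopeptidases cleave short peptides after proline.

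The sequences around the summits are shown here to place the motif matches of the loci. All are from the plus strand of TAIR10.1, whose chromosomes have the coordinates of TAIR10. Capitals in the first sequence mark both CArG-boxes (CC, 6 bases of A or T, GG). In the next 4 they mark the 10 bases closest to a CArG-box, and in a tie those nearest the summit. Except for the sequence between the genes, other 10 bases within 100 bp of the summit had as few mismatches and are not printed. In the sequence of *RLP33*/*AT3G05670* the last capitals mark a G-box (CACGTG).
DRB5/GDPD2 (chr5:16440812-16440932): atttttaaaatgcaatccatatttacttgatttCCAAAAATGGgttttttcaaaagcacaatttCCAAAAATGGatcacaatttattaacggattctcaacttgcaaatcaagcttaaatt
RLP33/AT3G05670 (chr3:1652946-1653116): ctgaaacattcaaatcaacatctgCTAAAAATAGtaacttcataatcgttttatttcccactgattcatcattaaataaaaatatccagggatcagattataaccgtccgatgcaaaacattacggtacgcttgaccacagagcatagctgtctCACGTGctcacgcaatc
AT2G20440/AT2G20450, FLC summit in WT (chr2:8813663-8813692): tctagcagagtactttCCTTTTTAACcgaa
AT2G20440/AT2G20450, between the genes (chr2:8813697-8813831): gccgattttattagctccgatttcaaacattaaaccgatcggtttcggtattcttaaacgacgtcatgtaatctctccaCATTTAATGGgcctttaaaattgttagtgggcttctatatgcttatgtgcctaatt
AT1G20380 (chr1:7065409-7065493): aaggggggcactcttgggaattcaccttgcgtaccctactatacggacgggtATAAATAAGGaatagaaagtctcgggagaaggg

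A peak was present in 14 of the 16 combinations of a locus and a list. FLC peaks were found at all 4 loci in both genotypes, and SVP:GFP peaks at all 4 loci in WT. The 2 combinations without a peak were both in SVP:GFP in *flc-3*, at *RLP33*/*AT3G05670* and at *AT1G20380*. Over all peaks of FLC in WT, 58.1% overlapped a peak of FLC in *svp-41* by at least 1 bp, 46.3% a peak of SVP:GFP in WT and 21.6% a peak of SVP:GFP in *flc-3*. Over all peaks of FLC in *svp-41*, 41.8% overlapped a peak of FLC in WT, 27.2% a peak of SVP:GFP in WT and 19.6% a peak of SVP:GFP in *flc-3*. Strong FLC peaks overlapped far more often than these shares, also elsewhere in the genome. Of the 30 strongest peaks of FLC in WT, a number chosen after the data were seen, 26 were not members. Of these, 26 overlapped a peak of SVP:GFP in WT, 25 a peak of FLC in *svp-41* and 18 a peak of SVP:GFP in *flc-3*. The presence of the 4 loci in the other lists was therefore shared with other sites of like strength. Both FLC lists rest on the same control plants, as do both SVP:GFP lists. The supplementary methods state that control samples were combined for peak calling, with a number of controls that differs from the labels, so which samples stand in the denominator of a fold-enrichment is not settled.

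The fold-enrichment, the ratio of the precipitated sample to its control in the authors' peak calling, set the loci apart in a different order in each list. In FLC in WT it was 16.4 at *AT2G20440*/*AT2G20450*, 15.4 at *DRB5*/*GDPD2*, 14.04 at *RLP33*/*AT3G05670* and 7.86 at *AT1G20380*, where the median of the list was 3.28. In FLC in *svp-41* it was 15.1 at *AT1G20380*, 7.90 at *AT2G20440*/*AT2G20450*, 4.20 at *RLP33*/*AT3G05670* and 3.65 at *DRB5*/*GDPD2*, against a median of 3.65. The last 2 were thus close to an ordinary peak of that list. The 4 loci in SVP:GFP in WT lay between 6.46 and 8.94, all above the median of 3.70. The 2 loci with a peak of SVP:GFP in *flc-3* had 9.47 at *DRB5*/*GDPD2* and 4.38 at *AT2G20440*/*AT2G20450*, with a median of 3.50.

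**Figure D1:**
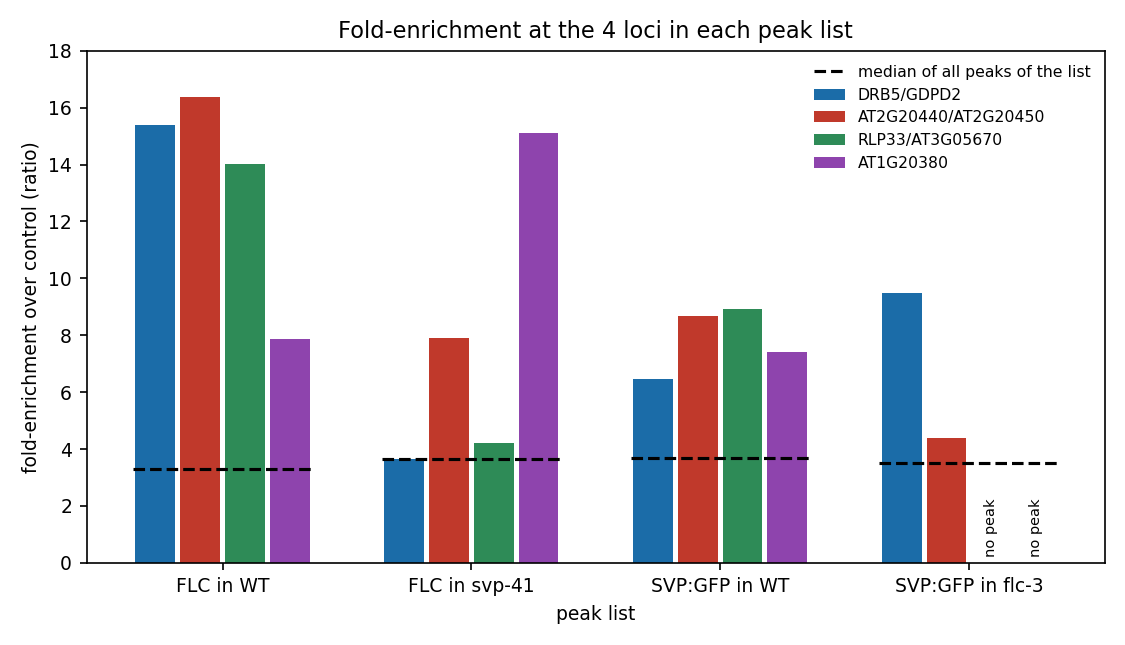
Fold-enrichment over the negative control (y axis, ratio) at the 4 loci in each of the 4 peak lists (x axis). Each bar is the single value that the list gives for a peak, so there are no error bars, and the dashed line is the median of all peaks of that list. In FLC in *svp-41* the bars of *DRB5*/*GDPD2* and *RLP33*/*AT3G05670* (3.65 and 4.20) lie near the median, while *AT1G20380* reaches 15.1.

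Of the 4 loci, that of *DRB5* and *GDPD2* had the FLC peaks whose ranks differed most between the lists. The peak of FLC in WT spanned chr5:16440600-16441151 (552 bp), had a −log10(P) of 134 and was rank 2 of 315. The peak of FLC in *svp-41* spanned 266 bp, had a −log10(P) of 12.5 and was rank 293 of 419. As a percentile, the share of peaks of a list with a lower −log10(P), this was 99.4 in WT and 28.9 in *svp-41*. Peaks of FLC in WT without an overlapping peak of FLC in *svp-41* have no pair and are left out here. Among the 183 peaks of FLC in WT with such an overlap, no other pair had a larger fall of the percentile. No pair had a larger ratio of fold-enrichments either (4.22, where the median over all pairs was 0.76). The locus was chosen for its high value in WT, so the size of this fall and ratio describes the choice in part and tests nothing. Only 27.3% of these pairs had the higher percentile in WT, whereas 3 of the 4 loci did, which the choice of the loci from the top of the list for WT fixed in part.

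**Figure D2:**
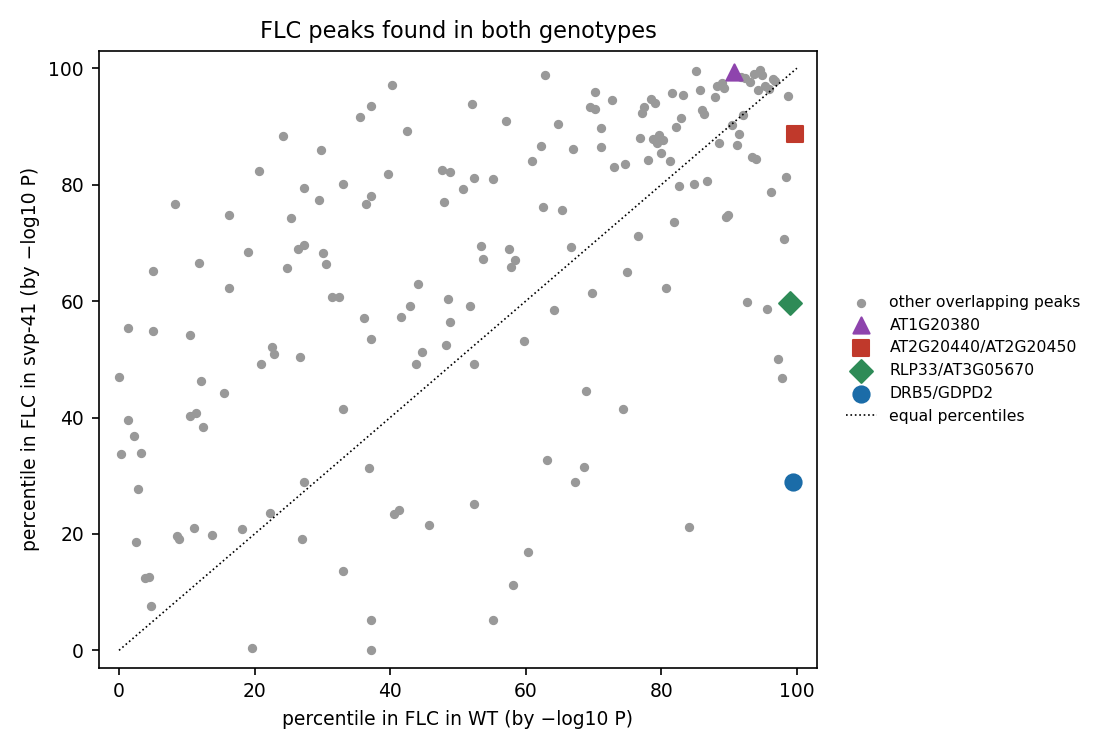
Percentile by −log10(P) in FLC in WT (x axis) and in FLC in *svp-41* (y axis) of the 183 overlapping FLC peaks, with the 4 loci in colour and the dotted line at equal percentiles. *DRB5*/*GDPD2* lies at 99.4 and 28.9, the pair farthest below the line, and *AT1G20380* lies above the line at 90.8 and 99.3.

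At the same place, the SVP:GFP peak of *DRB5*/*GDPD2* was strong in both genotypes. The peak in WT spanned 539 bp and was rank 70 of 523, with a −log10(P) of 91.9. In SVP:GFP in *flc-3* it spanned 726 bp, the widest of the peaks at this locus, and was rank 2 of 246, with a −log10(P) of 97.2. By fold-enrichment it was rank 1 of that list. The percentile was thus higher in *flc-3* (99.2) than in WT (86.2). Of the 144 overlapping SVP:GFP peaks, 78.5% had the higher percentile in WT, and of the 2 loci with peaks in both SVP:GFP lists, *AT2G20440*/*AT2G20450* did and *DRB5*/*GDPD2* did not. Among these pairs 18 had a smaller difference of WT minus *flc-3* than *DRB5*/*GDPD2* and 125 a larger one. The 4 summits lay within 28 bp of each other. This was the distance between the FLC summits, and 63.4% of the overlapping FLC peaks had summits closer together. The summits of FLC in *svp-41* and SVP:GFP in *flc-3*, the lists in which each protein was mapped without the other, were 7 bp apart.

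The summits of this locus lay in a gap of 1403 bp between *AT5G41071* and *GDPD2*, which are transcribed in the same direction as *DRB5*. The nearest gene was *AT5G41071*, a short gene of an uncharacterized protein, whose 3′ end was 593 to 621 bp away in the 4 lists. The 3′ end of *DRB5* was 789 to 817 bp away and the 5′ end of *GDPD2* 783 to 811 bp away. Only *GDPD2* had the summits upstream of its start. By the midpoint of the peak, *GDPD2* was nearest in SVP:GFP in *flc-3*, at 686 bp, and *AT5G41071* in the other lists. By the distance to the start of a gene, *GDPD2* was nearest in FLC in WT (783 bp, against 803 bp for *AT5G41071*) and *AT5G41071* in the other 3 lists (775 to 790 bp, against 796 to 811 bp for *GDPD2*).

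Both CArG-boxes of this locus, at chr5:16440845-16440854 and chr5:16440876-16440885, are the same 10 bases on the same strand with 21 bases between them. The summit of FLC in WT lay 8.5 bp from the centre of the right box, and the summit of SVP:GFP in *flc-3* lay 1.5 bp from the centre of the left box. The summits of FLC in *svp-41* and SVP:GFP in WT were also nearer to the left box, at 5.5 and 9.5 bp. Within 100 bp of the summit, 8.89% of the peaks of FLC in WT and 9.31% of those of FLC in *svp-41* held at least 1 CArG-box, and 1 of the 4 loci did. The pattern is its own reverse complement, so a match counts for both strands. At least 2 boxes were found in 2 of 315 peaks of FLC in WT (0.635%) and in 0.0144% of windows of 201 bp tiled over the genome, of which 1.24% held at least 1. The window around the summit of FLC in WT had a GC content of 24.4%, below all but 0.317% of the peaks of that list, whose median was 35.8%.

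**Figure D3:**
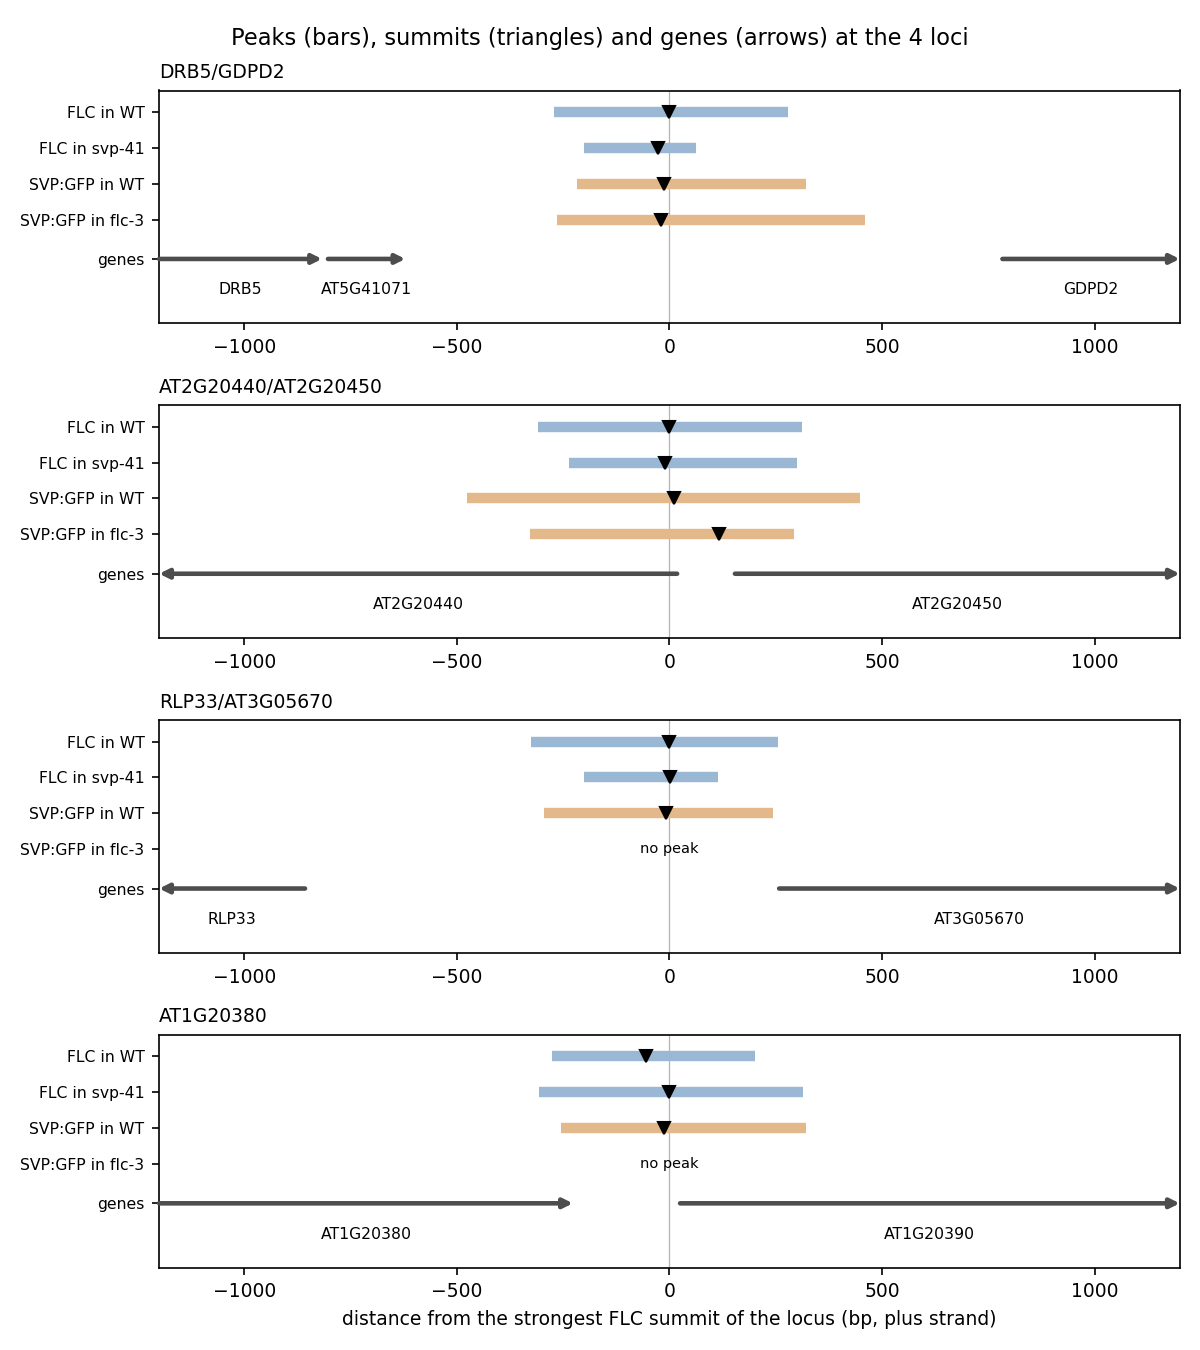
Extent of each peak (bars, FLC in blue and SVP:GFP in orange), its summit (triangles) and the genes (arrows in the direction of transcription, cut at the frame), as distance in bp from the strongest FLC summit of each locus. The summits of *DRB5*/*GDPD2* lie within 28 bp and those of *RLP33*/*AT3G05670* within 10 bp, while at *AT2G20440*/*AT2G20450* the summit of SVP:GFP in *flc-3* lies 116 bp from that of FLC in WT.

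At *AT2G20440* and *AT2G20450* the strongest peak of FLC in WT lay over the start sites of divergent genes. *AT2G20440* encodes a protein with a Ypt/Rab-GAP domain, and *AT2G20450* encodes ribosomal protein L14. The peak of FLC in WT spanned chr2:8813369-8813990 (622 bp), had a −log10(P) of 146 and was rank 1 of 315. In FLC in *svp-41* the peak was rank 46 of 419 with a −log10(P) of 52.1 and a width of 538 bp. The SVP:GFP peak in WT was rank 18 of 523 with a −log10(P) of 156 and a width of 926 bp. That of SVP:GFP in *flc-3* was rank 80 of 246 with a −log10(P) of 25.2 and a width of 622 bp. The percentile was higher in WT for both proteins, by 10.9 points for FLC and by 29.1 points for SVP:GFP. The median difference over all overlapping peaks was −8.86 points for FLC and 22.0 points for SVP:GFP. A larger difference was found in 29 of the 183 FLC pairs and in 58 of the 144 SVP:GFP pairs. For FLC the difference rests on the value in WT for which the locus was chosen.

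The genes are separated by 135 bp. The summits of FLC in WT, FLC in *svp-41* and SVP:GFP in WT lay in the 5′ UTR of *AT2G20440*, 18, 28 and 8 bp inside its start and 144 to 164 bp upstream of *AT2G20450*. The summit of SVP:GFP in *flc-3* lay between the genes, 38 bp upstream of *AT2G20450* and 98 bp upstream of *AT2G20440*, so that the nearest gene changed. It was 106 bp from the summit of SVP:GFP in WT, and 87.5% of the overlapping SVP:GFP peaks had summits closer together. The peaks themselves overlapped over all 622 bp, and by the midpoint of the peak *AT2G20440* was nearest in all 4 lists. The authors also assigned *AT2G20453* to these peaks, whose position was not used here.

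No CArG-box was found within 100 bp of these summits, or in the whole peaks. With 5 or 7 bases of A or T in place of 6, the whole peak of each list held 1 match, which lay outside these windows. The closest 10 bases near the FLC summit in WT had 2 mismatches and were centred 5.5 bp from it. In SVP:GFP in *flc-3* the closest 10 bases had 1 mismatch and were centred 13.5 bp from the summit, in the gap between the genes. The same 10 bases lay 92.5 bp from the summit of SVP:GFP in WT and outside the windows of both FLC lists. Such matches are common. A window with at most 1 mismatch was found at 51.4% of the peaks of FLC in WT, 32.9% of those of SVP:GFP in *flc-3* and 22.5% of the tiled genome windows, and a window with at most 2 mismatches at 91.7% of the peaks of FLC in WT.

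At *RLP33* and *AT3G05670* the peaks of the 3 lists shared nearly the same summit. The peak of FLC in WT spanned chr3:1652680-1653261 (582 bp), had a −log10(P) of 132 and was rank 3 of 315. In FLC in *svp-41* it was rank 169 of 419, with a −log10(P) of 18.2 and a width of 317 bp. The SVP:GFP peak in WT was rank 13 of 523, with a −log10(P) of 161 and a width of 539 bp. The percentile fell from 99.0 in WT to 59.7 in *svp-41*, and 7 of the 183 overlapping FLC pairs had a larger fall. The ratio of fold-enrichments was 3.34, and 1 pair, that of *DRB5*/*GDPD2*, had a larger ratio. The high value in WT on which both rest was the reason for the choice of this locus. The FLC summits were 2 bp apart and the SVP:GFP summit was 8 and 10 bp from them, where the median over all overlapping FLC peaks was 18 bp. SVP:GFP in *flc-3* had no peak here, and its nearest peak on the chromosome was 830222 bp away.

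These genes are also divergent, with 1114 bp between them. *AT3G05670*, which encodes a RING/U-box protein, was nearest in all 3 lists, with the summits 256 to 266 bp upstream of its start. *RLP33* lay on the other side, with the summits 849 to 859 bp upstream of its start. No CArG-box was found, and the closest 10 bases to the FLC summit in WT had 2 mismatches and were centred 31.5 bp from it. The G-box, a motif bound by bZIP and bHLH proteins that is its own reverse complement, started 94 bp to the right of the FLC summit in WT, 92 bp from that in *svp-41* and 102 bp from that of SVP:GFP. Of the 4 loci, only *RLP33*/*AT3G05670* had a G-box in any peak. Over whole peaks, a G-box was found in 11.4% of FLC in WT, 5.73% of FLC in *svp-41*, 28.5% of SVP:GFP in WT and 22.4% of SVP:GFP in *flc-3*. Within 100 bp of the summit a G-box was found at 8.89% of the peaks of FLC in WT, 3.82% of FLC in *svp-41*, 16.8% of SVP:GFP in WT, 15.0% of SVP:GFP in *flc-3* and 2.21% of the genome windows.

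*AT1G20380* had the reverse order of the FLC lists. The peak of FLC in WT spanned chr1:7065192-7065670 (479 bp), had a −log10(P) of 46.6 and was rank 29 of 315. In FLC in *svp-41* it spanned chr1:7065163-7065783 (621 bp), had a −log10(P) of 171 and was rank 3 of 419. In SVP:GFP in WT it was rank 40 of 523, with a −log10(P) of 117 and a width of 576 bp. The difference of the percentiles, WT minus *svp-41*, was −8.49 points, close to the median of −8.86 points over all 183 overlapping FLC peaks. The ratio of fold-enrichments was 0.52, and 162 of the 183 pairs had a larger ratio. The summit of FLC in WT lay 55 bp from that in *svp-41* and 43 bp from that of SVP:GFP, whereas the last 2 were 12 bp apart. Of the overlapping FLC peaks, 80.9% had summits closer together than 55 bp. No peak of SVP:GFP in *flc-3* lay nearer than 18974 bp.

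The summits lay downstream of *AT1G20380*, 172 to 227 bp past its 3′ end, in a gap of 251 bp. They were nearer to *AT1G20390*, an annotated pseudogene that was not among the genes assigned by the authors, and lay 25 to 80 bp upstream of its start. *AT1G20380*, which encodes a prolyl oligopeptidase, was the nearest protein-coding gene. The GC content within 100 bp of the summit was 54.2% to 55.2%, against list medians of 35.3% to 36.3%. No CArG-box was found here, and none of the windows held 10 bases with fewer than 2 mismatches.

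This was the only locus of the 4 whose sequence had a copy elsewhere in the genome, of at least 95% identity over at least 150 of the 201 bp around a summit. Such copies were found for 31.7% of the peaks of FLC in WT, 44.2% of FLC in *svp-41*, 5.35% of SVP:GFP in WT and 15.9% of SVP:GFP in *flc-3*. The copy lay 9961 bp to the right on the same chromosome and strand. It is shown here because the stretch printed above for *AT1G20380* differs from it at 1 base, in capitals.
Copy of the AT1G20380 site (chr1:7075370-7075454): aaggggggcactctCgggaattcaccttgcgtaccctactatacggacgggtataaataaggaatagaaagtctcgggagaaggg
The copy overlaps an intron and a coding exon of *AT1G20400*, a hypothetical protein with a domain of unknown function. For the window of FLC in WT it had 99.0% identity over 201 bp, and for that of FLC in *svp-41* 96.8% over 185 bp. FLC in *svp-41* had a second peak at the copy (chr1:7075377-7075578), with a fold-enrichment of 3.75, a −log10(P) of 17.1 and rank 186 of 419, and the other 3 lists had none there. More distant copies, at 85.1% to 94.6% identity, overlapped *AT5G54700* and *AT5G15420* on chromosome 5 and *AT3G52830* on chromosome 3, and none of them had a peak in any list. How reads were shared between the site and its copies was not tested.

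**Figure D4:**
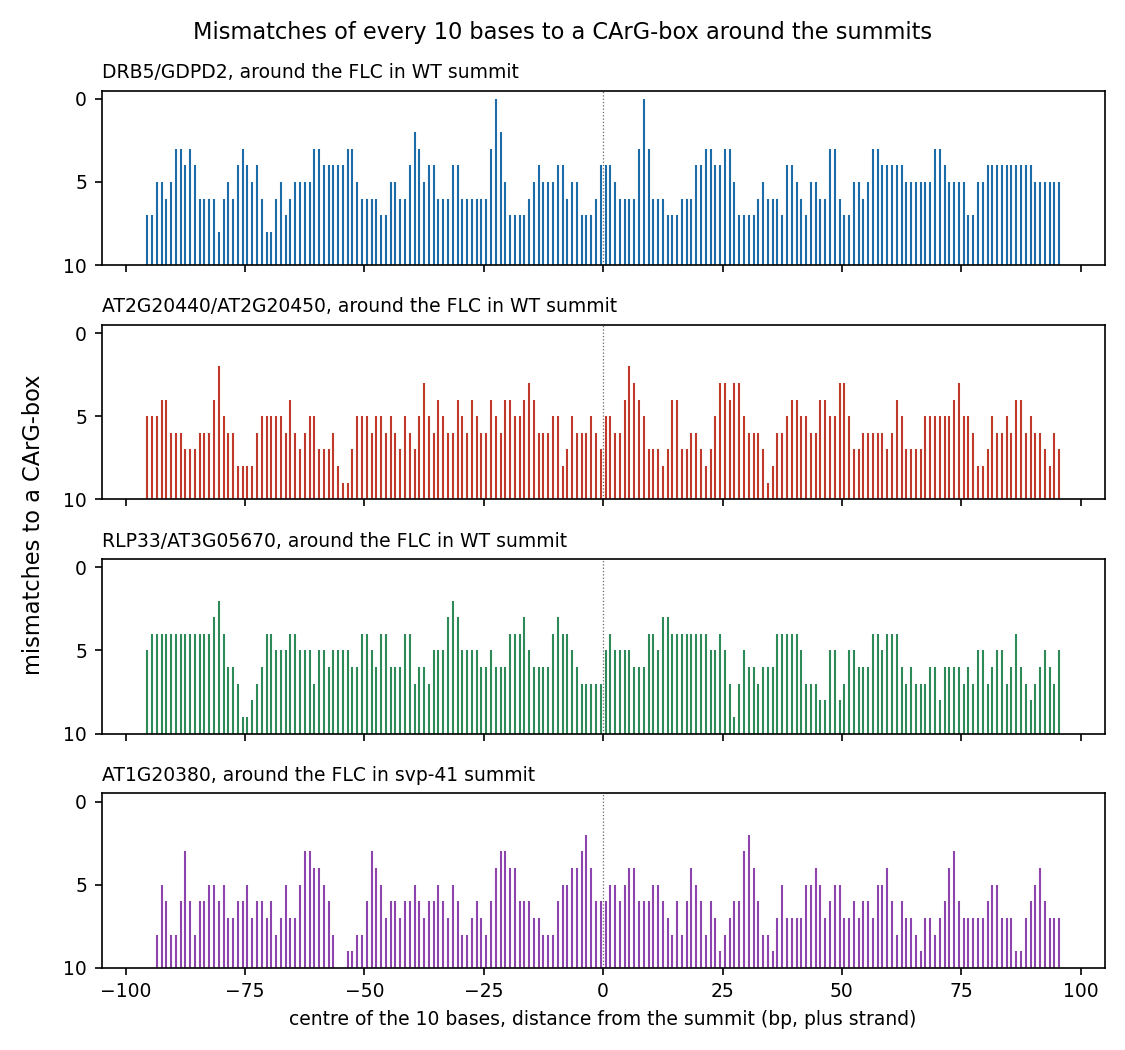
Number of mismatches to a CArG-box (y axis, 0 at the top) of every 10 bases within 100 bp of the strongest FLC summit of each locus (x axis, distance of their centre in bp). The 2 bars that reach 0 are both at *DRB5*/*GDPD2*, and at the other 3 loci no bar stands for fewer than 2 mismatches.

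The windows of 201 bp around the strongest FLC summits of the 4 loci were compared for shared runs of bases. The longest run shared by any pair of loci, on either strand, was 7 to 9 bases. Of the runs of 8 bases, 13 occurred in 2 loci and 0 in 3 or more. Unrelated windows were not compared, so how much they would share is unknown. The gene arrangement differed between the loci, with divergent genes at 2 loci and genes in the same direction at the other 2. All 29 assignments of a gene with a known position lay within the window from 3 kb upstream to 1 kb downstream that the authors used.

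Few relatives of the member genes had an assigned peak, as did few genes in general, so the counts say nothing particular about these families. Lists of relatives of *DRB5*, *GDPD2*, *RLP33*, *AT2G20440*, *AT2G20450* and *AT1G20380* held 37 genes beside the members, of which 0 were assigned to a peak in any of the 4 lists, where 3.84% of the 27444 protein-coding genes were. The list for *RLP33* held only genes of the same arm of chromosome 3. Over all 52 genes annotated as a numbered receptor like protein, 2 had a peak, *RLP33* and *RLP21*, and over all 329 RING/U-box genes, the family of *AT3G05670*, 14 did. These last 2 families were added after the data were seen. The second gene of ribosomal protein L14, *AT4G27090*, had no peak.

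Next in rank below the strongest member peaks, rank 4 of FLC in WT was a peak at *AT1G44010* with a fold-enrichment of 13.0 and a −log10(P) of 127. Rank 4 of FLC in *svp-41* was a peak at *MPI7*, *RPS15* and *AT1G04280* with a −log10(P) of 169. Of 3 sites taken for comparison, *SOC1*, an integrator of flowering signals, was rank 17 of FLC in WT and rank 1 of FLC in *svp-41*. Its fold-enrichments were 9.63 and 17.0. *SEP3*, which specifies floral organs, had the ranks 10 and 9, and *AOC4*, an enzyme of jasmonate synthesis, the ranks 47 and 2. All 3 had peaks in both SVP:GFP lists. Like *AT1G20380*, all 3 had the higher percentile in FLC in *svp-41*. Most overlapping FLC peaks did, as only 27.3% of the 183 pairs had the higher percentile in WT. The other 3 loci went the other way, but they were chosen from the top of the list for WT, which fixed this contrast in part. None of the 3 held a CArG-box within 100 bp of a summit, and each held 10 bases with 1 mismatch.

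The FLC peaks most like each locus were found by the distance between their percentiles over the 4 lists, with a list without a peak taken as 0, among 555 FLC sites. *AT1G20380* had the closest one, the receptor kinase gene *SRF3*, at 7.19 percentile points. *AT2G20440*/*AT2G20450* was closest to the site of *AT5G06125*, *AT5G06130* and *SNX1*, at 11.9 points, and then to that of *MPI7*, *RPS15* and *AT1G04280*, at 15.0 points. *RPS15* also encodes a ribosomal protein. *RLP33*/*AT3G05670* was closest to the sites of *AGL16*, a MADS-box gene, and *AT3G57220*, at 13.4 points, and of *JAZ6* and *AT1G72460*, at 15.0 points. *DRB5*/*GDPD2* had no near neighbour. The closest site, *AT2G30600*, was 31.3 points away and had no peak of FLC in *svp-41*, although it lay at the 97.5th percentile of FLC in WT and the 93.9th of SVP:GFP in *flc-3*.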

How the data were processed

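The labels assign 18 ChIP-seq samples to 6 groups. Per the paper's methods, the authors aligned reads to TAIR10 with Bowtie2 2.0.2, used MACS to call peaks relative to the control plants and retained peaks reproducible between biological replicates, with IDR at most 0.05, that NarrowPeaks also found. Technical replicates were combined. The deposited lists give start, end, summit offset, a fold-enrichment (ratio to the control) and a −log10 p-value, both from the authors' peak calling, and the assigned genes; 0 columns of sample values were left unused. Lists were called separately and depend on an unknown depth, so loci were compared by rank and percentile within a list, with no test, SD or n.

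The members and gene lists were chosen with earlier results of these data known. Genes named are the members, genes assigned to the same peaks, *SOC1*, *SEP3* and *AOC4*, genes next in rank or most alike in percentile, genes near a summit and genes at copies. Peaks were analysed with Python 3.11.15, NumPy 2.4.6 and matplotlib 3.10.9, with genes and sequence from RefSeq TAIR10.1. Copies were found with blastn 2.17.0. Overlap, motif, rank and copy searches were tested on simulated data. Alternatives were a minimum −log10(P) of 20, lists of 246 peaks, ranks by fold-enrichment, lists without copied sequence, midpoints, gene starts, other motif windows and matches and, chosen after seeing the data, the 30 strongest peaks, the closest 10 bases, all RLP and RING/U-box genes, and copies of at least 85% identity.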

Additional observations from a re-analysis of the deposited data

How the results depend on the processing

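Of 29 alternatives to the counts and distances above, 23 left the value within 1.5 times. By the midpoint of the peak in place of the summit, the spread between lists was 167 bp at *DRB5*/*GDPD2* (28 bp by summit), 50 bp at *AT2G20440*/*AT2G20450* (126 bp) and 19 bp at *RLP33*/*AT3G05670* (10 bp). With 1 mismatch allowed, 2 loci held a CArG-box, the second being *AT2G20440*/*AT2G20450* in the SVP:GFP lists. Within 50 bp of the summit, 0 loci held a G-box. With all RLP and RING/U-box genes counted as relatives, 14 relatives had a peak in place of 0. A minimum −log10(P) of 20 left 12 of 14 peaks, without those of *DRB5*/*GDPD2* and *RLP33*/*AT3G05670* in FLC in *svp-41*, and lists of 246 peaks left 13, without the former. Without peaks at copied sequence *AT1G20380* drops out, and 3 loci ranked higher for FLC in WT. The direction of each rank difference was the same by fold-enrichment. No paired analysis was possible because each list gives 1 value per peak over its replicates, and for the same reason no replicate could be left out. With 1 value for each peak, replicate error and counting error are unknown.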
